A study of Mus musculus with 4 samples.

Results

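Tubulins, kinesins, the subunits of cytoplasmic dynein, dynein light chains, kinesin light chains and stathmins were described in sorted neural stem cells of the adult mouse brain. The genes were chosen by symbol: every protein-coding mouse gene named as an alpha-, beta- or gamma-tubulin with a number, a kinesin (Kif or Kifc), a kinesin light chain (Klc), a dynein subunit (Dync, Dynll or Dynlt) or stathmin 1, 2 or 3. This rule found 81 of the 32564 genes in the data, and 79 of them had at least 1 estimated count in some library. Tubb1 and Kif2b had none. The rule uses no measured value, but it was set with earlier results of these data known.

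All 4 libraries carry the same labels and form 1 group. They are activated neural stem cells positive for EGFR, Prom1 and GFAP, sorted from untreated gfap:GFP transgenic mice that were 3 months old and of mixed CD1 and C57BL/6 background. In such animals GFP is driven by GFAP regulatory sequence, which other astroglial cells can also use. The design text of the series differs from these labels: it speaks of quiescent stem cells taken 3 days after an intraventricular injection of artificial cerebrospinal fluid or of an antagomer against miR204, and no label assigns a library to either injection. No comparison between groups was therefore made, and the spread between libraries may hold a treatment difference. The labels do not say whether each library had its own animals, so SDs and p-values measure the spread between these 4 libraries only.

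Microtubules are hollow polymers of alpha- and beta-tubulin dimers, nucleated by gamma-tubulin rings. Mitotic kinesins build, shorten and divide the spindle in dividing cells, while transport kinesins and cytoplasmic dynein carry cargo outward and inward along microtubules. Activated neural stem cells are the dividing state of the adult stem cell, and neurons, which they give rise to, are known for high levels of tubulin and of transport motors.

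Depth was 16978938 to 23727664 estimated counts per library. Levels are in TPM, an abundance divided by transcript length and scaled to one total per library, so levels of different genes can be set side by side. The sorted markers were present: Egfr averaged 89.7 ± 23.1 TPM, Prom1 23.1 ± 7.01 TPM and Gfap 150 ± 54.4 TPM (SD, n = 4). Markers of other cells were present too, and none of the listed markers with a transcript was at 0. The summed level of 5 oligodendrocyte markers ranged from 726 to 2295 TPM over the libraries, that of 5 ependymal markers from 514 to 1013 TPM, that of 5 mature neuron markers from 1035 to 1282 TPM, that of 4 neuroblast markers from 171 to 312 TPM and that of 4 microglial markers from 67.4 to 229 TPM. In such bulk RNA, fewer cells of a type and less RNA per cell cannot be told apart.

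The tubulin genes encode nearly the same protein body. The proteins differ most at the end, the acidic tail that sticks out of the microtubule and takes up modifications. Among the abundant alpha-tubulins on chromosome 15, Tuba1a matched Tuba1b at 98.3% of bases and Tuba1c at 98.4% over the first 420 codons, and Tuba1b matched Tuba1c at 99.4%.

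The beta-tubulin coding ends are shown, because they encode the acidic tails, for the isotypes between which the beta-tubulin RNA was divided. They run from the first base after codon 420 to the last base before the stop codon (GRCm38, GENCODE M21, 5′ to 3′ of the gene). Capitals mark everything after the stretch that all 6 share.
Tubb4b (chr2:25222311-25222385, minus strand): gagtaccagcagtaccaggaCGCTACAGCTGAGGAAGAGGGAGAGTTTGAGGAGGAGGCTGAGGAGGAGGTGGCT
Tubb5 (chr17:35834985-35835056, minus strand): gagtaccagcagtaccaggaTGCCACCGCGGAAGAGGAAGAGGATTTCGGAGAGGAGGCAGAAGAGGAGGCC
Tubb2a (chr13:34074471-34074545, minus strand): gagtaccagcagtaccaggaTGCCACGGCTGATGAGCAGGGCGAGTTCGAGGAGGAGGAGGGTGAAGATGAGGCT
Tubb4a (chr17:57080693-57080764, minus strand): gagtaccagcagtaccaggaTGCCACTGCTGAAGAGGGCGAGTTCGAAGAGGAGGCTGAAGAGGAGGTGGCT
Tubb2b (chr13:34127474-34127548, minus strand): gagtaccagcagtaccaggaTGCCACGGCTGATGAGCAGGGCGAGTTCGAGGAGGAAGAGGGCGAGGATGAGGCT
Tubb3 (chr8:123421590-123421679, plus strand): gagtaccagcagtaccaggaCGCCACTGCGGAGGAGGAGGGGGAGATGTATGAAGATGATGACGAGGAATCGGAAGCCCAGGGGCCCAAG
Tubb2a and Tubb2b differed at 3 of 75 bases here and matched at 96.5% of bases over the first 420 codons. The other 20 pairs of beta-tubulin genes, Tubb6 included, matched at 81.0 to 87.5% over these codons, so their bases differed before the ends as well.

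Most of these genes were above 1 TPM. Of the 79 genes with a count, 70 were above 1 TPM and 5 below it, and 4 did not pass the test in either direction (limma on log2(TPM + 1), Benjamini-Hochberg adjusted p under 0.05 over 19914 genes). Across all genes tested, 62.8% were above 1 TPM and 23.2% below, and across protein-coding genes 71.6% were above and 15.6% below. Without library 3, the only one with a count of Tuba3a, Tuba3b or Kif28, 2 genes were below 1 TPM, since these 3 then had no count to test. The median level of the 81 genes was 26.5 TPM, against 12.5 TPM over protein-coding genes with a count and 8.34 TPM over all genes with a count. In all, 53 of the 81 averaged at least 10 TPM and 17 at least 100 TPM.

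**Figure D1:**
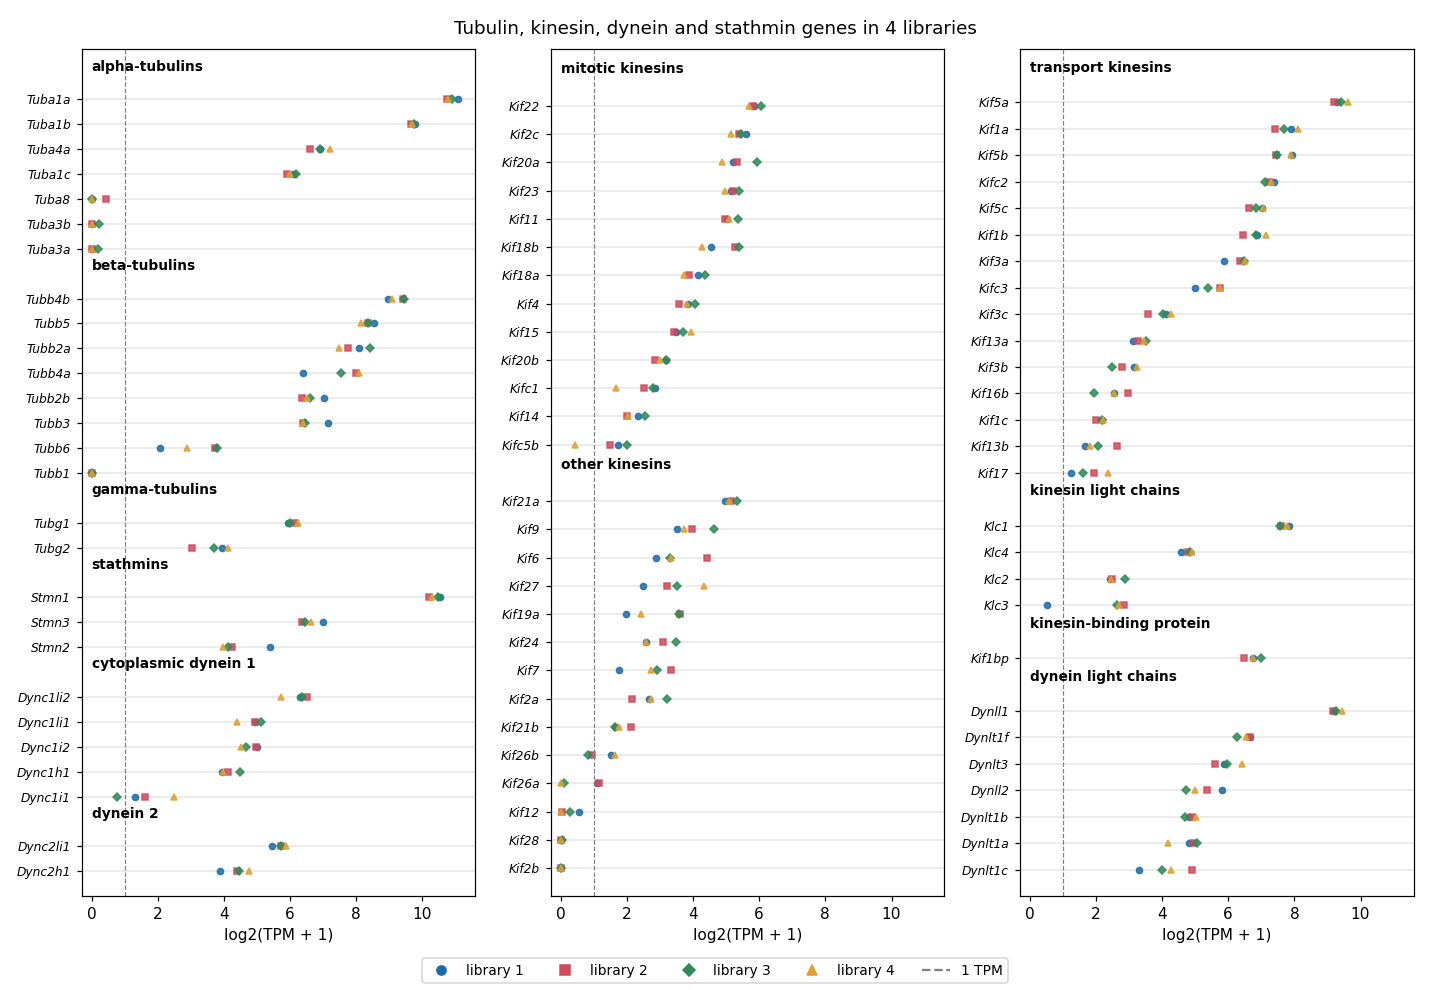
Level of each gene in each library on a log2(TPM + 1) axis, grouped by class, with 1 point per library and a dashed line at 1 TPM. Tuba1a and Stmn1 lie at the top of the range and Tuba8, Tuba3a, Tuba3b, Kif12 and Kif28 below the line, as do Tubb1 and Kif2b, which had no count.

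Alpha-tubulin RNA was mostly Tuba1a, an isotype known from newborn neurons and other cells of the nervous system. Tuba1a (chr15:98949837-98953703, minus strand, GRCm38) had 2146, 1729, 1921 and 1752 TPM in libraries 1 to 4, and it ranked 38 among all genes by mean level. Tuba1b, a broadly expressed isotype, had 871, 804, 850 and 820 TPM. Both were high in every library, and their ranges did not overlap. Tuba1a made up 64.8 ± 1.66% of alpha-tubulin TPM and Tuba1b 28.8 ± 1.20% (SD, n = 4).

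Tuba4a, an isotype known from differentiated cells, had 120, 96.0, 118 and 147 TPM. Tuba1c had 66.8, 58.6, 71.9 and 62.5 TPM, below Tuba4a in every library. This order rests on transcripts of Tuba4a that are tagged incomplete: over complete coding transcripts Tuba4a had 3.42, 2.74, 4.45 and 2.78 TPM, below Tuba1c in every library, and 35.6% of its 31-base words also occurred in Stk16. Tuba1a was 2.25-fold higher than Tuba1b and Tuba1b 12.7-fold higher than Tuba1c within libraries, on the scale of log2(TPM + 1). The other alpha-tubulins were below 1 TPM. Tuba8 had 11 estimated counts in library 2 and none elsewhere, and Tuba3a and Tuba3b, genes known from testis, had counts in library 3 alone. Under edgeR's quasi-likelihood test Tuba8 did not pass, with an adjusted p of 0.085.

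Near-identical genes limit these shares. The files divide reads that match several genes by estimate, and 78.6% of the 31-base words in Tuba1a transcripts, 68.7% of those of Tuba1b and 63.9% of those of Tuba1c also occurred in transcripts of other genes. A different split among the 3 genes leaves their sum as it is, and that sum made up 95.8 ± 0.775% of alpha-tubulin TPM (SD, n = 4).

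Beta-tubulin RNA was spread over more isotypes. Tubb4b, a broad isotype also needed for cilia, had 492, 685, 689 and 538 TPM in libraries 1 to 4. Tubb5, the isotype known from dividing neural progenitors, had 371, 324, 325 and 281 TPM. Tubb4b was above Tubb5 in every library. Of the 31-base words of Tubb4b 53.0% also occurred in other genes, mostly in a processed pseudogene assigned 0.117 ± 0.0945 TPM.

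Tubb2a, abundant in neurons, had 273, 214, 339 and 177 TPM. Tubb4a, the isotype of myelinating oligodendrocytes, had 82.9, 256, 186 and 270 TPM, so that library 1 held the lowest level. Its SD of log2(TPM + 1) was 0.78, higher than that of 98.0% of all genes of at least 10 TPM. Tubb4b made up 37.8 ± 3.65% of beta-tubulin TPM, Tubb5 20.7 ± 2.83%, Tubb2a 15.8 ± 3.70% and Tubb4a 12.6 ± 5.72% (SD, n = 4).

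Tubb2b, known from migrating neurons, had 128, 81.8, 96.8 and 90.4 TPM, and Tubb3, the usual neuronal marker, had 141, 82.1, 86.1 and 82.3 TPM. Tubb2b was above Tubb3 in 2 of 4 libraries, and the mean log2 difference of 0.04 ± 0.14 (SD, n = 4) was smaller than its spread. Tubb3 was highest in library 1, where its level exceeded that in the other 3 libraries, which lay within 82.1 to 86.1 TPM. Of the words of Tubb2a 51.1%, and of those of Tubb2b 37.5%, were shared by these 2 genes. Tubb6 averaged 8.71 ± 4.69 TPM. Tubb1, the platelet isotype, had no count, which allows a level of up to 0.220 TPM at 3 counts.

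**Figure D2:**
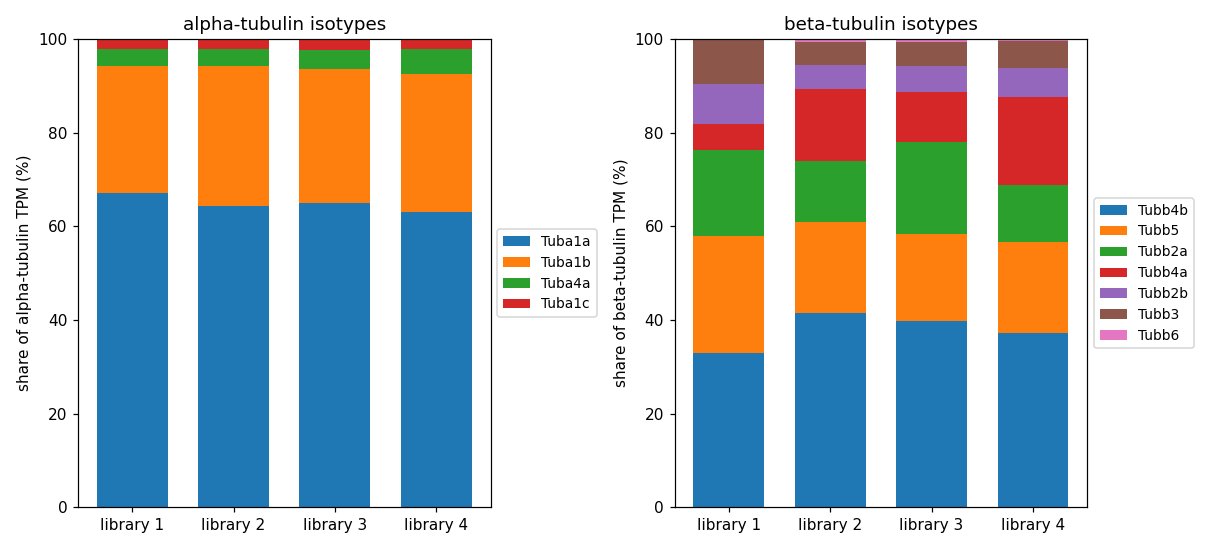
Share of each isotype in the summed TPM of alpha-tubulins (left) and beta-tubulins (right), 1 stacked bar per library on an axis from 0 to 100%. Tuba1a takes 63.0 to 67.0% of alpha-tubulin in every library, while the share of Tubb4a is 5.56% in library 1 and 10.7 to 18.7% in the others.

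Summed alpha-tubulin TPM exceeded summed beta-tubulin TPM in every library, with a ratio of 1.85 ± 0.235 (SD, n = 4). Tubulins of all 3 kinds took 0.457 ± 0.0236% of all TPM. Of the gamma-tubulins, which nucleate microtubules, Tubg1 had 60.3, 69.5, 63.2 and 74.6 TPM and Tubg2 14.5, 7.18, 12.02 and 16.6 TPM. Tubg1 was higher in 4 of 4 libraries, by 5.18-fold, while 23.6% of the 31-base words of Tubg2 also occurred in Tubg1.

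The mitotic kinesins were expressed as a set at moderate levels. Of 13 genes, 12 were above 1 TPM, against 71.6% of protein-coding genes. Over protein-coding transcripts alone 10 were above 1 TPM, since Kifc1 did not pass and Kif14 was below. The median of their mean levels over all transcripts was 15.6 TPM. Kif22 (chr7:127027729-127042471, minus strand), a chromokinesin that pushes chromosome arms from the spindle poles, had 56.2, 55.6, 65.8 and 50.5 TPM in libraries 1 to 4. Kif2c, which shortens microtubules at kinetochores, had 47.9, 41.0, 42.7 and 34.3 TPM. Kif20a, which works in cytokinesis, had 36.3, 39.5, 60.01 and 28.4 TPM, and 22.3% of its 31-base words also occurred in Cdc23.

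Kif23, the kinesin of the central spindle, had 34.8, 35.8, 41.2 and 29.97 TPM. Library 3 held the highest and library 4 the lowest level of Kif22, Kif20a and Kif23, whereas Kif2c was highest in library 1. Kif11, which pushes the spindle poles apart, averaged 33.7 ± 4.47 TPM. The 2 Kif18 genes limit the length of spindle microtubules: Kif18b had 22.5, 37.3, 41.2 and 18.3 TPM, against 16.7, 13.8, 19.6 and 12.1 TPM for Kif18a. Kif18b was thus higher in 4 of 4 libraries, by 1.79-fold.

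The lower members were Kif4, a chromosome-bound kinesin needed for chromosome shape and the midzone (13.3 ± 1.93 TPM), Kif15, a partner of Kif11 in spindle assembly (11.7 ± 2.13 TPM), and Kif20b, a cytokinesis kinesin (7.32 ± 0.933 TPM; SD, n = 4 each). Kif20b had 8.10, 6.16, 8.05 and 6.96 TPM, below Kif20a in every library. Kifc1, which draws microtubule minus ends together at the poles, had 6.21, 4.71, 5.92 and 2.16 TPM. Its close copy Kifc5b averaged 1.87 ± 1.12 TPM and did not pass the test, with an adjusted p of 0.23 (limma), but passed without library 4, with an adjusted p of 0.034. Kifc1 no longer passed over protein-coding transcripts alone, with an adjusted p of 0.082 (limma). Of the 31-base words of Kifc5b 52.6% also occurred in Kifc1, so the division between these 2 genes is uncertain. Kif14, a cytokinesis kinesin, had 4.04, 3.01, 4.90 and 3.14 TPM, but over protein-coding transcripts alone 0.188, 0.489, 0.254 and 0.245 TPM, which was below 1 TPM with an adjusted p of 0.0005 (limma).

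The summed level of the 13 mitotic kinesins was 290, 289, 360 and 247 TPM in libraries 1 to 4, and that of the 5 cycling markers Mki67, Top2a, Cdk1, Ccnb1 and Ube2c was 542, 570, 639 and 429 TPM. Both sums were highest in library 3 and lowest in library 4. Among single kinesins, Kif22, Kif20a, Kif23, Kif18a, Kif18b and Kifc5b shared both. The others did not: Kif2c, Kif20b and Kifc1 were highest in library 1 and Kif15 in library 4. Kif11, Kif4 and Kif14 were lowest in library 2. Mki67 had another order, at 17.3, 20.6, 23.0 and 24.01 TPM, highest in library 4. Cdk1 was highest in library 2, at 145 TPM against 122 TPM in library 3. The part of the number of cycling cells in the spread of the mitotic kinesins was not tested.

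The promoters of mitotic kinesins are shown because several genes of late cell cycle phases are known to be controlled through a cell cycle homology region and through CCAAT boxes. RefSeq sequences (GRCm38.p6), from 250 bases before to 50 bases after the start, were matched for 12 of the 13 mitotic kinesins and 14 of the 20 transport motors, and for 60 of the 81 genes in all. The 3 highest mitotic kinesins whose promoter held both motifs are printed 5′ to 3′ on the strand of the gene. Capitals mark each TTTGAA and each CCAAT on either strand, so TTCAAA and ATTGG are the same motifs on the other strand.
Kif22 (chr7:127042371-127042670, minus strand): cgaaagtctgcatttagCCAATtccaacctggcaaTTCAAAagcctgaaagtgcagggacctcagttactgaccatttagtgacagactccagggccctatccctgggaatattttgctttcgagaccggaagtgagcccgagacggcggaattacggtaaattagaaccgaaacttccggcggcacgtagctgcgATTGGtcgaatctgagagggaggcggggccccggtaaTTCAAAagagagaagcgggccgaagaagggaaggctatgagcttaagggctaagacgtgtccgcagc
Kif23 (chr9:61946750-61947049, minus strand): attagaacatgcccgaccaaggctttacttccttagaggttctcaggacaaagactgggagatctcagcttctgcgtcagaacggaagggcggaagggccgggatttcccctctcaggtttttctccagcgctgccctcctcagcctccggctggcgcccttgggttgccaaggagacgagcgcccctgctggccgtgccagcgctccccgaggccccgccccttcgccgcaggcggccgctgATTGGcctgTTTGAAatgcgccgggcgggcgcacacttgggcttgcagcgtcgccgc
Kif11 (chr19:37376132-37376431, plus strand): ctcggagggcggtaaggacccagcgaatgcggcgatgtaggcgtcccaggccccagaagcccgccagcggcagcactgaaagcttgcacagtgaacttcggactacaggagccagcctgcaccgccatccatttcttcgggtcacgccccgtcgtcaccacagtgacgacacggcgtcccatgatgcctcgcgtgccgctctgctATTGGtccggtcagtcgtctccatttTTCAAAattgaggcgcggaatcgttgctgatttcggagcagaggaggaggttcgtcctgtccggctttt
The letters TTTGAA stood in 11 of 12 mitotic kinesin promoters, in 1 of 14 transport motor promoters and in 20.2% of the promoters of 27025 genes. CCAAT stood in 8 of 12, in 3 of 14 and in 41.1%. Both stood in 8 of 12, in 0 of 14 and in 7.97%. Kifc1 and its close copy Kifc5b, whose promoters are nearly the same letters, were counted separately. The Kif14 promoter (chr1:136467598-136467897, plus strand) lay inside the gene, which starts at base 136466343 in GENCODE M21. Within 50 bases of the start, a window chosen after the positions were seen, TTTGAA stood in 9 of 12 mitotic kinesin promoters, in 1 of 14 transport motor promoters and in 5.72% of all. Neither motif contains the other. A match describes these letters and is not a bound site.

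Transport kinesins were all above 1 TPM, 15 of 15, against 71.6% of protein-coding genes, with a median mean level of 44.4 TPM. Kif5a (chr10:127225696-127263348, minus strand), the neuronal heavy chain of kinesin-1, had 629, 590, 684 and 779 TPM in libraries 1 to 4 and was the highest of all 42 kinesin heavy chains. Kif1a, which carries synaptic vesicle precursors, had 237, 170, 206 and 278 TPM. Kif5b, the kinesin-1 heavy chain of most cells, had 244, 175, 175 and 239 TPM. Kif1a was lowest in library 2, where Kif5b was low too.

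Kif5a was 3.23-fold higher than Kif5b and 5.64-fold higher than Kif5c, another neuronal heavy chain, and it made up 67.3 ± 3.25% of kinesin-1 heavy chain TPM (SD, n = 4). Over complete coding transcripts, Kif5a was 10.2-fold higher than Kif5b and made up 78.9 ± 1.96% (SD, n = 4), and Kif5b lay below Kif5c. Kif5c had 130, 98.4, 113 and 132 TPM. Kifc2, a kinesin known from neurons, had 167, 150, 136 and 157 TPM. Kif1b, a motor for mitochondria and vesicles, had 117, 86.5, 112 and 141 TPM, and Kif1a was 1.94-fold higher than Kif1b in the same libraries.

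Of kinesin-2, the motor of intraflagellar transport, Kif3a had 57.8, 80.4, 88.3 and 90.5 TPM, while Kif3b, its partner in the heterodimer, had 7.93, 5.88, 4.64 and 8.49 TPM. Kif3a was 10.4-fold higher than Kif3b, by 6.69-fold over protein-coding transcripts and by 4.81-fold over complete coding ones. The fold was 3.59 with the most abundant transcript alone. For Kif3a that was Kif3a-206, a nonsense-mediated decay transcript of 770 bases tagged incomplete. Kif3c, another partner of Kif3a, had 16.3, 10.97, 15.4 and 18.2 TPM. Complete coding transcripts held 44.9% of the TPM of Kif3a. The remaining transport kinesins ranged from Kif17 at 2.59 ± 1.18 TPM to Kifc3 at 44.4 ± 10.5 TPM (SD, n = 4 each). Kif17, a kinesin of dendrites, no longer passed without library 2, 3 or 4, with adjusted p-values of 0.084, 0.062 and 0.072 (limma). With the most abundant transcript alone 13 of 15 passed, and Kif17 (adjusted p of 0.87, limma) and Kif1c (0.31) did not. Kif1c, a close relative of Kif1b, had 3.56, 3.00, 3.51 and 3.65 TPM, far below Kif1b.

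Kif13a and Kif13b move vesicles and endosomes. Kif13a had 7.71, 8.72, 10.5 and 9.97 TPM, and Kif13b 2.15, 5.25, 3.16 and 2.57 TPM, so that Kif13a was higher in 4 of 4 libraries, by 2.46-fold.

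Cytoplasmic dynein 1, the inward motor, was lower than the leading transport kinesins. Its light intermediate chain Dync1li2 had 77.1, 90.6, 81.8 and 51.5 TPM and Dync1li1 29.8, 29.5, 33.7 and 20.2 TPM. The intermediate chain Dync1i2 had 31.1, 30.5, 24.4 and 21.7 TPM, and all of these were lowest in library 4. The heavy chain Dync1h1 had 14.5, 16.4, 21.2 and 14.5 TPM. Dync1i1, the intermediate chain known from neurons, had 1.49, 2.06, 0.696 and 4.68 TPM and did not pass the test, with an adjusted p of 0.15 (limma), against 0.041 with edgeR's quasi-likelihood test.

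Dync1i2 was 9.44-fold higher than Dync1i1. Dynein 2 moves cargo back along cilia. Its heavy chain Dync2h1 had 13.8, 20.03, 20.96 and 26.02 TPM, above Dync1h1 in 2 of 4 libraries, and the mean log2 difference of 0.25 ± 0.40 (SD, n = 4) was smaller than its spread. Over protein-coding transcripts alone Dync2h1 had 11.9, 16.3, 17.4 and 25.0 TPM, against 7.91, 8.74, 6.81 and 9.21 TPM for Dync1h1, and was 1.98-fold higher in 4 of 4 libraries. Much of Dync1h1 was assigned to short retained-intron transcripts. Dync2h1 had 66.9% of its TPM in a coding transcript of 2892 bases. Its coding transcript of 14264 bases had 2.16, 2.57, 2.0 and 4.13 TPM, and that of 13103 bases 0.167, 2.25, 1.26 and 2.05 TPM. Each was below the coding transcript of Dync1h1 of 14342 bases, at 7.91, 8.74, 6.81 and 8.99 TPM, in every library. The higher level of Dync2h1 over protein-coding transcripts therefore depended on its short transcript.

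The mitotic kinesins were lower than the transport motors, 15 kinesins and 5 dynein 1 subunits, in every library. The median log2(TPM + 1) in libraries 1 to 4 was 4.14, 3.89, 4.37 and 3.95 for mitotic kinesins, 4.97, 4.95, 4.89 and 4.46 for transport motors, and 7.08, 7.06, 7.08 and 7.0 for beta-tubulins. The mitotic median minus the transport median was −0.83, −1.07, −0.52 and −0.50, on average −0.73 ± 0.27 (SD, n = 4). The mitotic median minus the beta-tubulin median was −2.97 ± 0.20. The transport median minus the beta-tubulin median was −2.24 ± 0.21.

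Single genes of the classes overlapped. Kif22 stood above the transport median in every library, and Kif17 and Kif13b stood below the mitotic median. With only the most abundant transcript of each gene, the difference between mitotic kinesins and transport motors was −0.29. No test was made, since these are medians over chosen genes.

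**Figure D3:**
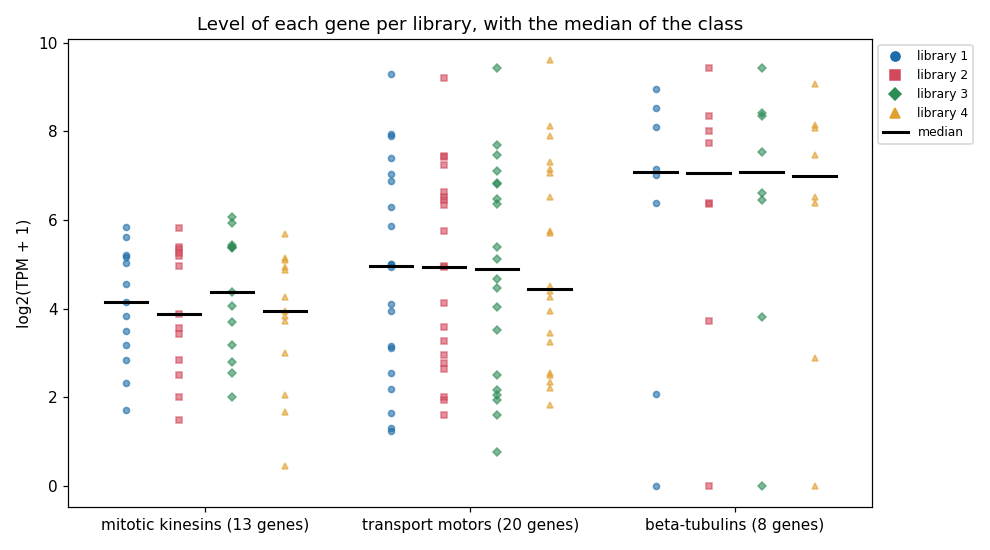
Level of every mitotic kinesin, transport motor and beta-tubulin in each library on a log2(TPM + 1) axis, with 1 point per gene and a black bar at the median of the class. In each library the bars ascend in the order mitotic kinesins, transport motors, beta-tubulins, while points of the first 2 classes overlap over most of their range.

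Kinesin light chains link kinesin-1 to cargo. Klc1 had 226, 192, 188 and 219 TPM and made up 85.1 ± 2.75% of light chain TPM (SD, n = 4), and it was 35.2-fold higher than Klc2. Klc4 had 23.0, 26.4, 27.5 and 29.0 TPM, and Klc2 had 4.38, 4.58, 6.32 and 4.45 TPM. Klc3 had 0.443 TPM in library 1, against 6.28, 5.19 and 5.51 TPM in the others, and passed the test narrowly with an adjusted p of 0.046 (limma). Without library 2, 3 or 4 Klc3 no longer passed, with adjusted p-values of 0.14, 0.14 and 0.12 (limma). Of its 31-base words 23.8% also occurred in Ercc2.

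Kif1bp, named like a kinesin but encoding a protein that binds kinesins and holds them off microtubules, had 106, 87.8, 125 and 107 TPM. All 7 dynein light chains were above 1 TPM, against 71.6% of protein-coding genes. Dynll1, a dimerising hub protein that also binds many partners outside dynein, had 581, 574, 612 and 691 TPM and was 16.4-fold higher than Dynll2, which had 55.5, 40.3, 25.2 and 30.97 TPM. Protein-coding transcripts held 54.8% of the TPM of Dynll1, and over them the fold was 9.0. Dynlt3, a Tctex-type light chain, had 57.7, 47.0, 60.9 and 85.1 TPM.

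The Dynlt1 copies lie close together on chromosome 17 and share most of their sequence. Dynlt1f had 99.2, 99.2, 75.5 and 91.5 TPM, yet 95.8% of its 31-base words also occurred in Dynlt1c, which had 8.88, 28.9, 15.1 and 18.2 TPM. Levels of single Dynlt1 copies are therefore uncertain, and the pseudogene Dynlt1-ps1 was assigned 48.8, 20.1, 45.0 and 50.01 TPM.

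Stathmins bind tubulin dimers and favour disassembly of microtubules. Stmn1 (chr4:134468320-134473843, plus strand), high in proliferating and newborn neural cells, had 1463, 1183, 1429 and 1255 TPM and ranked 51 among all genes. Stmn3 had 128, 81.2, 86.5 and 97.6 TPM. Stmn2, a neuronal stathmin of growth cones, had 41.4, 17.8, 16.3 and 14.7 TPM. Stmn1 made up 91.8 ± 1.54% of stathmin TPM (SD, n = 4), and Stmn1, Stmn3 and Stmn2 were each highest in library 1.

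The other kinesins had a median of 5.83 TPM, and 9 of 14 were above 1 TPM, a share near that of all genes (62.8%) and of protein-coding genes (71.6%). Kif21a, which restrains microtubule growth in neurons, had 30.1, 34.6, 38.9 and 32.7 TPM and was 10.1-fold higher than Kif21b, which had 2.11, 3.34, 2.14 and 2.41 TPM. The fold was 6.73 with the most abundant transcript alone. Kif9, a kinesin of motile cilia, had 10.5, 14.8, 23.9 and 12.2 TPM. Kif6, known from ependymal cilia, had 6.31, 20.6, 8.84 and 9.02 TPM, and Kif27, needed for motile cilia, had 4.58, 8.33, 10.5 and 19.2 TPM. All 3 of these cilia kinesins were lowest in library 1. Kif6 was instead lowest in library 4 over protein-coding transcripts alone, at 2.6 TPM against 3.86 TPM in library 1.

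Kif19a, which sets the length of motile cilia, averaged 7.39 ± 4.33 TPM, and Kif7, a regulator of Hedgehog signalling at the cilium tip, 5.94 ± 2.78 TPM (SD, n = 4 each). Kif2a, a microtubule depolymerase related to Kif2c, had 5.42, 3.50, 8.24 and 5.71 TPM, and Kif2c was 6.49-fold higher than it, by 12.7-fold with the most abundant transcript alone. With the most abundant transcript alone Kif7 and Kif2a did not pass, with adjusted p-values of 0.22 and 0.1 (limma). Kif26a and Kif26b did not pass the test in either direction, with adjusted p-values of 0.16 and 0.32 (limma). Kif26a had 121 and 120 estimated counts in libraries 1 and 2 but 6 and 0 in libraries 3 and 4. Kif12 and Kif28 were below 1 TPM, though Kif12 did not pass with edgeR's quasi-likelihood test, with an adjusted p of 0.11. Kif21b did not pass over protein-coding transcripts alone, with an adjusted p of 0.25 (limma).

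Within libraries, 26 of 28 pairs of related genes kept one order in 4 of 4 libraries. For each of these 26 the two-sided exact sign-flip p was 0.125, the smallest that 4 libraries allow, and 0.135 after adjustment over the 28 pairs, so no pair could pass 0.05. The exceptions were Tubb2b with Tubb3 and Dync2h1 with Dync1h1.

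The spread between libraries was typical of genes of at least 10 TPM. The median SD of log2(TPM + 1) was 0.25 over the 53 members at that level. It was 0.25 too over all 9433 genes at that level. The 5 genes of at least 10 TPM with the largest SD were Tubb4a (0.78), Kif27 (0.77), Kif6 (0.67), Dynlt1c (0.66) and Stmn2 (0.66), and each varied more than 96.4 to 98.0% of all genes of that level.

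Some members had their lowest or highest library in common with markers of other cell types. Library 1 held the lowest sum of oligodendrocyte, ependymal and microglial markers alike and the highest sum of both neuroblast and mature neuron markers, so being lowest or highest there does not single out 1 cell type. The genes set beside each marker list were picked after their values were seen. The summed oligodendrocyte markers were 726, 1958, 1761 and 2295 TPM in libraries 1 to 4. Of these markers Mobp was lowest in library 3 instead, at 312 TPM against 341 TPM in library 1. Tubb4a had the same lowest and highest library as the sum. Tuba4a, another isotype found in oligodendrocytes, was lowest in library 2 instead. Klc3 was lowest in library 1 as well. Microglial markers summed to 67.4, 184, 229 and 219 TPM.

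The summed neuroblast markers were 312, 214, 216 and 171 TPM, and Tubb3, Stmn2, Stmn3 and Tubb2b were highest in library 1 as that sum was. So were Tuba1a, Tuba1b, Tubb5 and Stmn1, so this order does not set the former genes apart. Of the markers in that sum, Sox11 was highest in library 2 instead, at 20.3 TPM against 17.4 TPM in library 1. Ependymal markers summed to 514, 1013, 688 and 863 TPM, lowest in library 1 like Kif6, Kif9, Kif19a and Kif27. For Kif6 and Kif19a this depended on other transcripts than protein-coding ones. With protein-coding transcripts alone both were lowest in library 4, Kif6 at 2.6 TPM and Kif19a at 1.72 TPM. Their levels in library 1 were then 3.86 and 2.83 TPM. Mature neuron markers summed to 1282, 1045, 1035 and 1091 TPM, highest in library 1, whereas Kif5a, Kif1a and Kif5c were highest in library 4. The part of other cell types in the spread of these genes was not tested, and 4 libraries are too few for a correlation.

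**Figure D4:**
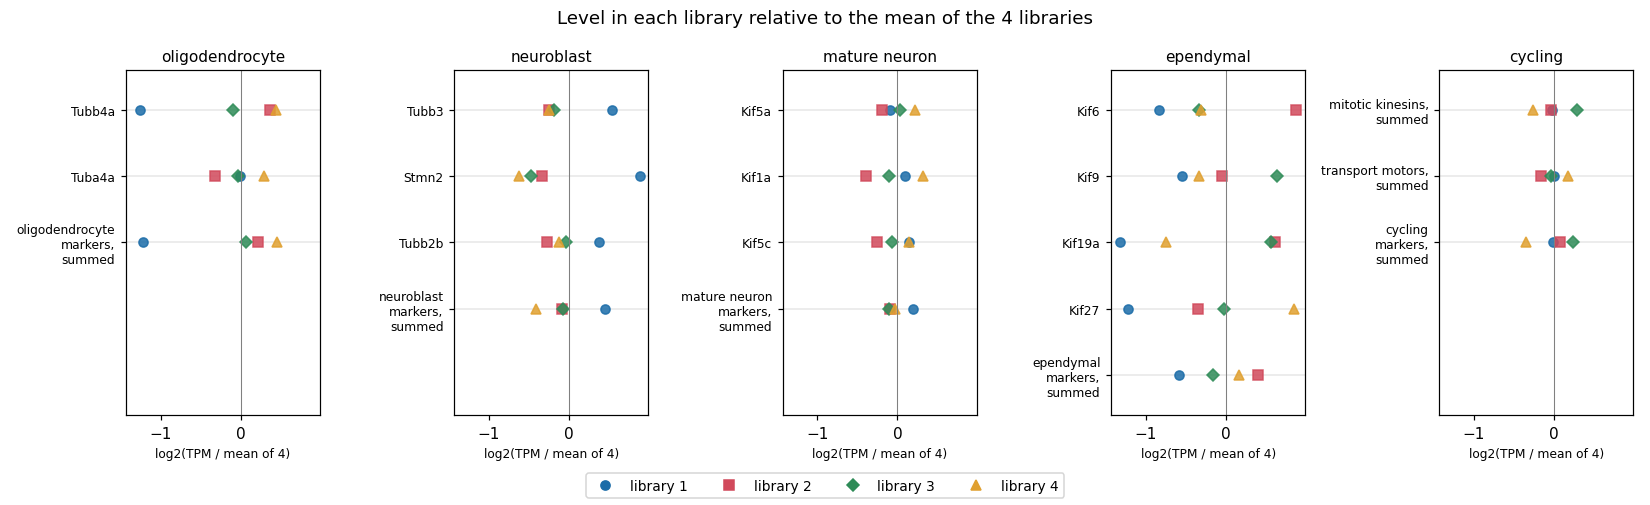
Level of selected genes and of summed marker lists in each library, as log2 of TPM over the mean of the 4 libraries, 1 panel per marker list and 1 point per library on a shared axis. Library 1 lies far left for Tubb4a and the oligodendrocyte markers and far right for Tubb3, Stmn2 and the neuroblast markers, while Kif5a, Kif1a and Kif5c do not follow the mature neuron markers.

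The kind of transcript behind a level differed among members. Of the 73 genes that averaged at least 1 TPM, 56 had at least 90% of their TPM in transcripts annotated as protein-coding, and 5 had under 50%. These 5 were Kif14 (7.79%), Dynlt1c, Kifc1, Dync1h1 and Kif6. Most of Kif14 was assigned to Kif14-202, a retained-intron transcript of 4102 bases at 2.49 ± 0.641 TPM, while its complete coding transcript Kif14-203 had 0.294 ± 0.134 TPM (SD, n = 4 each). Over protein-coding transcripts alone the level of Kif14 minus 1 TPM was −0.63 on the log2(TPM + 1) scale.

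Of Dync1h1, the complete coding transcript had 8.11 ± 0.983 TPM and the retained-intron transcript Dync1h1-204 of 427 bases 5.31 ± 2.53 TPM (SD, n = 4 each). In Kif5b, Kif5b-202, tagged as incomplete and 2006 bases long, held 140 ± 29.8 TPM, against 65.2 ± 8.76 TPM for the complete coding transcript of the gene. Over complete transcripts alone Kif5b lay below Kif5c, by −0.79 on the log2 scale, while over all transcripts it was 1.74-fold higher. Tuba4a had 2.78% of its TPM in complete coding transcripts.

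**Figure D5:**
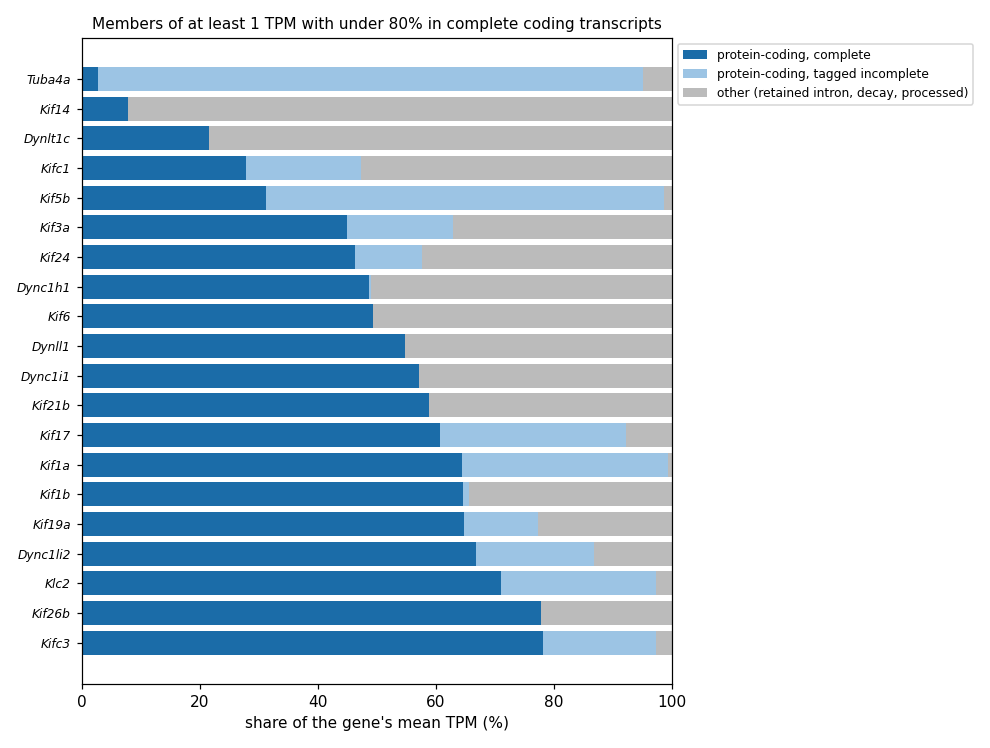
Share of the mean TPM of a gene in complete protein-coding transcripts (dark), protein-coding transcripts tagged incomplete (light) and other transcripts (grey), for the genes of at least 1 TPM with under 80% in the first class, on an axis from 0 to 100%. Tuba4a (2.78%) and Kif14 (7.79%) have the smallest dark bars, and the light part leads in Tuba4a and Kif5b.

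Most partners of these proteins were above 1 TPM. All 12 genes of dynactin, the cofactor of dynein, were above 1 TPM, led by Capza2 (161 ± 6.17 TPM) and Dctn2 (141 ± 18.8 TPM). Of 16 dynein regulators and adaptors 14 were above it, led by Dynlrb1 (315 ± 37.0 TPM), and Bicdl2 was below it. All 11 kinesin adaptors were above it, with Arl8a, which couples lysosomes to kinesin, at 200 ± 15.1 TPM (SD, n = 4 each).

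All 26 structural and end-binding microtubule-associated proteins were above 1 TPM, led by Map4 (254 ± 42.5 TPM) and Map2 (226 ± 19.8 TPM), the microtubule protein of dendrites. All 13 tubulin folding genes were above it, led by the prefoldin subunit Pfdn5 (290 ± 38.3 TPM). Of 15 tubulin modification genes 14 were above it, led by the deacetylase Sirt2 (175 ± 18.9 TPM) and the acetyltransferase Atat1 (79.4 ± 11 TPM; SD, n = 4 each). All 10 gamma-tubulin ring genes were above it, and 6 of 8 microtubule severing genes. These counts are to be read against the 71.6% of protein-coding genes above 1 TPM.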

How the data were processed

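RNA of 4 libraries from sorted neural stem cells was analysed. Per the labels' protocols, RNA was extracted with the PicoPure kit, cDNA was amplified with SMART-Seq v4, and paired-end reads were taken on a HiSeq system. Per the submitters' processing notes, the authors used kallisto and sleuth with mm10; the sources used here give neither their versions nor the transcript release. Files as deposited hold an estimated count and a TPM value per transcript. The estimated count deposited by the authors divides reads shared by several transcripts by estimate, and TPM deposited by the authors scales it by effective length and to a fixed total, so a rise of some genes lowers the TPM of others. Amplified reads without molecular identifiers are not independent molecules, and limits from 3 counts cover counting error only.

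Transcript identifiers were matched without version to GENCODE M21 on GRCm38: 98294 of 99567 matched, and the rest, left out, made up 2.59 to 4.56% of TPM and 0.530 to 0.619% of counts in a library. TPM was summed per gene. Over 19914 genes with a count, limma 3.58.1 in R 4.3.3 tested log2(TPM + 1) against its value at 1 TPM, with a mean-variance trend, two-sided, and Benjamini-Hochberg adjusted p under 0.05. Folds and differences are on the log2(TPM + 1) scale. Pairs were tested by exact sign-flip permutation. Depth was 16978938 to 23727664 counts. The test was also run on simulated counts, drawn only for genes with a count in every library. That run therefore says nothing about genes without a count in some library, such as Tuba8, Tuba3a, Tuba3b and Kif28.

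Alternatives were a pseudocount of 0.1, a mean of at least 5 counts, TPM rescaled over nuclear protein-coding genes, TMM and DESeq2 1.42.0 size factors, the edgeR 4.0.16 quasi-likelihood fit on rounded counts with length offsets (the F of the intercept formed from the deviances), other sums over transcripts, and each library left out. The sum over complete coding transcripts was added after the values were seen. Library numbers follow accession order and only name libraries.

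The genes, classes, pairs, partner lists and markers were chosen with earlier results of these data known. Every gene of the rule could be named; values per library were given for the 4 highest of each class, for pairs, for the 5 most variable of at least 10 TPM and for genes with under 50% of their TPM in coding transcripts. The library order of Kif19a and the counts of Kif26a were named after their values were seen. After the files were read, Kif1bp was put in a class of its own. The marker Dlx6os1 had no matched transcript. Motifs were searched on both strands of RefSeq promoters, and beta-tubulin coding ends came from GENCODE M21; those of the alpha-tubulins are not reported here.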

Additional observations from a re-analysis of the deposited data

Results flagged for a closer look

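Among 79 values tested for a library far from the other 3, 4 stood out, and chance alone flags about 1 in 20 such groups. Tubb3 was at 141 TPM in library 1, far above the other 3 libraries. Stmn2 was at 41.4 TPM in library 1, and Klc2 at 6.32 TPM in library 3, again above the others. The share of Tubb5 in beta-tubulin TPM was 24.88% in library 1, above the 18.7 to 19.6% of the others; the share of Tubb4a was lowest in that library.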

How the results depend on the processing

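No paired analysis was possible because the labels give 1 group only. Over the alternatives in which a gene was tested, 66 of 79 genes kept their direction and their side of the threshold against 1 TPM. These 66 include Tuba3a, Tuba3b and Kif28, which had no test without library 3 or with a mean of at least 5 counts. Over all alternatives, 26 of 28 pairs kept their direction. With each library left out in turn, the genes above 1 TPM numbered 68 to 70 and those below it 2 to 5, with 2 when library 3 was left out. The genes below 1 TPM, 5 in the main test, numbered 1 with a mean of at least 5 counts, where fewer low genes were tested, and 3 with edgeR. The mitotic median differed from the transport median by −0.81 to −0.62 with a library left out, but by −0.29 with the most abundant transcript alone, and the transport median from the beta-tubulin median by −2.80 there. Tubulins took 0.615% of all TPM when rescaled over nuclear protein-coding genes, and Tuba1a took 67.9% of alpha-tubulin over complete coding transcripts. Against 1 TPM, Kif14 turned to −0.63 over protein-coding transcripts and over complete ones, and with the most abundant transcript alone Kif26b turned to −0.27, Kif17 to −0.03 and Dync1i1 to −0.23. Kif5b over Kif5c turned to −0.79 over complete transcripts, and Tubb2b over Tubb3 ranged from −0.00, without library 3, to 0.1, without library 1. The cause was not tested beyond the choice of transcripts or libraries that defines each alternative. Depth limits genes at 0 counts, and reads shared between near-identical copies limit the split among Tuba1, Tubb2, Kifc1 and Dynlt1 genes.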
